A study of Homo sapiens with 4 samples.

Results

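The genes described here are 10 genes of the ATF4 stress response: ATF4, ASNS, CHAC1, DDIT4, NUPR1, TRIB3, SESN2, ATF3, DDIT3 and ATF5. They were taken by their gene names on the array, with every probe of each gene, and make up 10 of 43317 gene names. They were chosen by their changes with miR-891b on these same arrays, so the values below describe the genes and no test was run on them. RNA was measured on Agilent 1-colour arrays in a series on PSAT1, an aminotransferase of serine synthesis, and extracellular vesicle release. HCT116 is a colorectal cancer line grown in McCoy's 5A medium, and A549 is a lung cancer line grown in DMEM. Cells of each line received either the microRNA miR-891b or the negative control RNA NC1, in all 4 groups with the reagent Dharmafect1, and 100 ng of total RNA was taken for analysis. The 2 treatments in 2 lines thus make 4 groups of 1 array each. The dose, the time after transfection and the number of cultures behind an array are not given in the sources used here. The arrays read the RNA of whole cultures, so fewer cells that express a gene and less RNA per cell cannot be told apart.

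ATF4 is the transcription factor at the centre of the integrated stress response. When amino acids or haem run short, when unfolded protein builds up in the endoplasmic reticulum or when double-stranded RNA is sensed, kinases phosphorylate the initiation factor eIF2, which lowers protein synthesis in general but raises translation of the ATF4 mRNA. ATF4 then pairs with other leucine zipper proteins on promoter elements of genes for amino acid synthesis and uptake, for braking TORC1 and for further transcription factors. The arrays read mRNA and not ATF4 protein, which is the step that this pathway controls most directly.

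A microRNA selects its transcripts mainly by its seed, and the transfected one is shown for that reason, from RefSeq (GRCh38.p14, chrX:146001100-146001121, minus strand, 22 bases), 5′ to 3′, with the seed (bases 2 to 8) in capitals.
miR-891b: uGCAACUUaccugagucauuga
The complement of this seed, AAGTTGC, occurred in 0 of the 14 probes of the 10 genes, against 229 of 58201 probes (0.393%) on the array. A probe covers 60 bases, and the rest of the transcripts was not analysed here.

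A binding element of ATF4, the amino acid response element, was searched as TGATGNAA on both strands of RefSeq promoter windows reaching from 250 bases before to 50 bases after a start site (GRCh38.p14). No sequence can match both this motif and the cAMP response element TGACGTCA in the same 8 bases. The windows held 9 of the 10 genes, and NUPR1 was not listed. The element occurred in 3 of these 9 genes, ASNS, CHAC1 and ATF3, against 1270 of 35116 windows (3.62%) and 1217 of 27305 genes (4.46%). The cAMP response element, TGACGTCA, occurred in 0 of 9 genes, against 614 of 27305 genes (2.25%) and 1.85% of all windows. A match describes the letters only and not a bound site. The 250 bases before the start of the 3 genes with a match are shown because they can be set beside the changes given below, 5′ to 3′ in the direction of the gene, with the match in capitals. They lie at chr7:97872409-97872658 on the minus strand for ASNS, at chr15:40953221-40953470 on the plus strand for CHAC1 and at chr1:212565157-212565406 on the plus strand for ATF3.
ASNS: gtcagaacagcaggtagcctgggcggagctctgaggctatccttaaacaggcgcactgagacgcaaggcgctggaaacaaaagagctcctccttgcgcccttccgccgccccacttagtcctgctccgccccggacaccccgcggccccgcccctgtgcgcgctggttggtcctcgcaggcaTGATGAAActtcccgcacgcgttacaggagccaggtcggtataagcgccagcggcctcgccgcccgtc
CHAC1: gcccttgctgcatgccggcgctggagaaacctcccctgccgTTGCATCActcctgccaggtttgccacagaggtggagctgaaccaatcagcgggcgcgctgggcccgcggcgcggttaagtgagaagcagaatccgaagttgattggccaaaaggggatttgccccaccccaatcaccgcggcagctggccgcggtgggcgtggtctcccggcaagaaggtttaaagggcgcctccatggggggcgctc
ATF3: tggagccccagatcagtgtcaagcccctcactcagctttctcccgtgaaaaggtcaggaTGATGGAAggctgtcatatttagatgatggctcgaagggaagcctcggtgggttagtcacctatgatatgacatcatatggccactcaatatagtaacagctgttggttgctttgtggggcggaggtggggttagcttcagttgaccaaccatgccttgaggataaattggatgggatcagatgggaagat
The ASNS match, TGATGAAA, began 68 bases before the start and ran in the direction of the gene. The CHAC1 match lay on the opposite strand, where the printed strand reads TTGCATCA, and began 209 bases before the start. In ATF3, TGATGGAA began 191 bases before the start of the window shown. ASNS and ATF3 had 2 windows each, of which 1 held a match, and CHAC1 had 1 window.

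With miR-891b, 4 of the 10 genes fell at least 2-fold in HCT116 (NUPR1, CHAC1, DDIT4 and ASNS) and 0 rose, while in A549 3 rose at least 2-fold (NUPR1, DDIT3 and ATF3) and 0 fell. A change is the log2 signal with miR-891b minus that with NC1 in the same line. Because the genes were listed with these changes known, their counts are read against no expectation. For orientation, 0.843% of the 19105 genes measured in HCT116 were lower by at least that size and 1.16% were higher by it. In A549 the shares were 5.57% lower and 4.01% higher of 21337. All 10 genes were well above background on both arrays of each line by the probe used. Their changes in HCT116 ran from -1.86 to 0.39 with a median of -0.48, and 9 of 10 lay below 0. In A549 they ran from -0.82 to 2.13 with a median of 0.27, and 4 lay below 0. Over all measured genes the median change was -0.041 in HCT116 and -0.059 in A549, with an SD over genes of 0.38 and 0.61.

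Both lines had a negative change for 4 genes (ATF4, ASNS, CHAC1 and DDIT4), and both had a positive one for ATF5. The other 5 (NUPR1, TRIB3, SESN2, ATF3 and DDIT3) had a negative change in HCT116 and a positive one in A549. The A549 change was the higher one for 9 of 10 genes, with DDIT3 and NUPR1 furthest apart and ATF4 as the exception. The share of all genes with a higher A549 change is not given here, and the 10 were chosen by these changes. With 1 array per group, nothing here could be checked against a replicate. No p-value is given for any change, and precision is limited by the number of arrays. Probes printed on at least 5 spots gave a median SD of the change over spots of 0.061 in HCT116 and 0.071 in A549, which covers the spots alone.

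**Figure D1:**
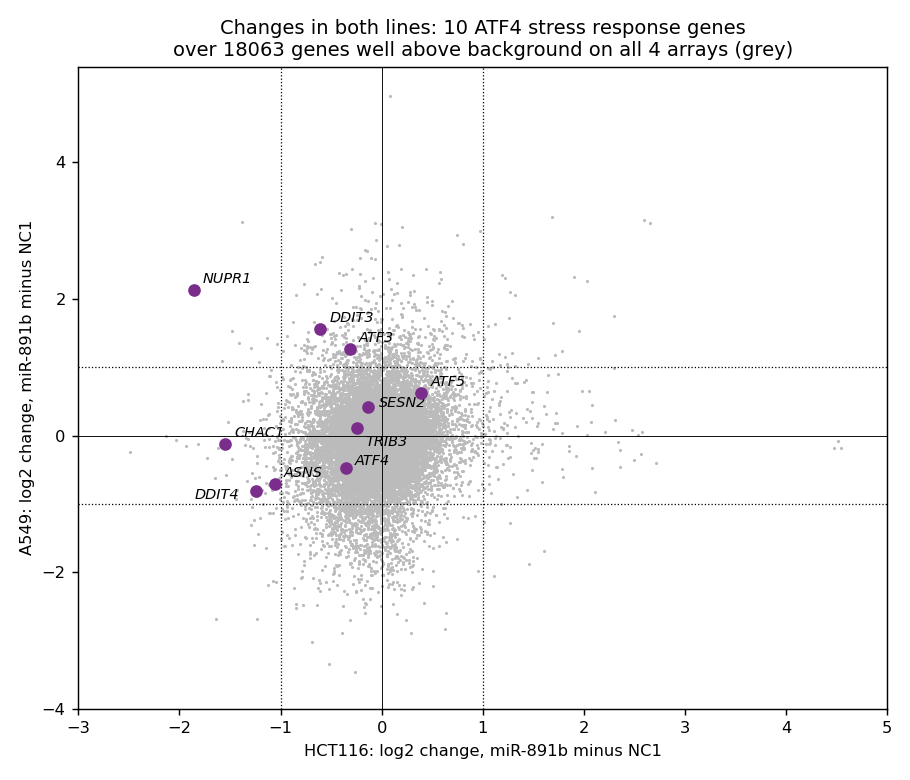
Log2 change with miR-891b in HCT116 (horizontal axis) and A549 (vertical axis) for the 10 genes (purple) over the 18063 genes measured in both lines (grey), with dotted lines at 2-fold. NUPR1 lies at -1.86 and 2.13, past 2-fold in opposite directions, while ASNS, DDIT4, CHAC1 and ATF4 are below 0 on both axes.

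The arrays carried 58201 gene probes each, of which 44.7% to 50.3% were well above background, and 0 spots were saturated. An area was marked for stray signal on an array where, of the surrounding spots (up to 10 rows and columns away) dim on the 3 remaining arrays, at least 10% were well above background. Such areas held 0.0197% to 10.5% of the gene spots of an array, most on HCT116 miR-891b. Of the markers used to check the line labels, 6 of 6 for A549 and 4 of 6 for HCT116 were higher in their own line. The other HCT116 markers, VIL1 and CDH17, were higher in A549 and not well above background in HCT116. Both arrays of a line shared a slide and each line had its own medium, so line, slide and medium cannot be told apart. Within each line miR-891b and NC1 shared a slide and a medium.

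ATF4 itself, the factor that gives the response its name, was read by 1 probe (A_23_P120933, chr22:39918577-39918636, hg19). Its log2 level relative to the 75th percentile of the array was 8.89 in HCT116 NC1, 8.53 in HCT116 miR-891b, 7.79 in A549 NC1 and 7.31 in A549 miR-891b. The miR-891b array was the lower one in both lines and both A549 arrays lay below both HCT116 arrays. The changes were -0.36 in HCT116 and -0.48 in A549, neither reaching 2-fold. They came to -0.14 and -0.048 under quantile normalization, and to -0.029 in A549 after normexp background correction with quantile normalization, so the size of the ATF4 change rests on the scaling.

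Genes that act on amino acids and glutathione come next. ASNS makes asparagine from aspartate and glutamine, and its probe (A_23_P145694) lies at chr7:97481461-97481520. Its level was 7.46 in HCT116 NC1, 6.41 in HCT116 miR-891b, 4.97 in A549 NC1 and 4.26 in A549 miR-891b. The miR-891b level was the lower one in each line, and the lines did not overlap. ASNS fell by 1.05 in HCT116, to 48.1% of its NC1 signal, the change at rank 124 from the lowest of 19105. The call is at the edge of the threshold, since the change was -0.96 both under quantile normalization and with normexp. In A549 the change was -0.71, or 1.64-fold lower, short of the threshold.

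CHAC1, a cyclotransferase that breaks down glutathione, was read by 2 probes. The brighter one (A_33_P3376971, chr15:41248631-41248690) gave 3.94 in HCT116 NC1, 2.39 in HCT116 miR-891b, 0.90 in A549 NC1 and 0.77 in A549 miR-891b. The arrays of HCT116 stood well apart and those of A549 did not. CHAC1 fell by 1.54 in HCT116, to 34.3% of the NC1 signal (rank 16 from the lowest), against a change of -0.12 in A549. The other probe (A_33_P3376965, chr15:41247814-41247873) read a separate stretch of the same transcript. It gave -0.51 with NC1 and -1.96 with miR-891b in HCT116, a 2.74-fold decrease, and was not well above background on either A549 array. The probes therefore gave like decreases in HCT116, while the small A549 change rests on the brighter probe alone.

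DDIT4 (also called REDD1) and SESN2 both restrain TORC1, the kinase complex that drives growth when amino acids are at hand. DDIT4 was the one gene of the 10 printed on several spots, 10 of a single probe (A_23_P104318, chr10:74035363-74035422). Its mean level was 6.18 in HCT116 NC1, 4.94 in HCT116 miR-891b, 5.28 in A549 NC1 and 4.46 in A549 miR-891b. No spot overlapped between the arrays of a line, the SD over the 10 spots of an array being 0.037 to 0.066. DDIT4 changed by -1.24 ± 0.065 (SD, n = 10 spots) in HCT116, from -1.31 to -1.07, at rank 56 from the lowest. In A549 the change was -0.82 ± 0.081 (SD, n = 10 spots), from -0.94 to -0.68. Each of the 10 spots was past 2-fold in HCT116 and none was in A549. These SDs cover printing and hybridisation on the same pair of arrays, not separate cultures. In each line 1 of the 10 spots lay in an area of stray signal, and without it the means were -1.24 and -0.82.

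SESN2, a leucine-sensing sestrin, had lower signal (A_23_P35082, chr1:28608194-28608253). Its level was 0.56 in HCT116 NC1, 0.42 in HCT116 miR-891b, -1.01 in A549 NC1 and -0.59 in A549 miR-891b. Changes of -0.14 and 0.42 left it within 2-fold in both lines, with opposite signs. After normexp with quantile normalization they shrank to -0.019 and 0.18.

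**Figure D2:**
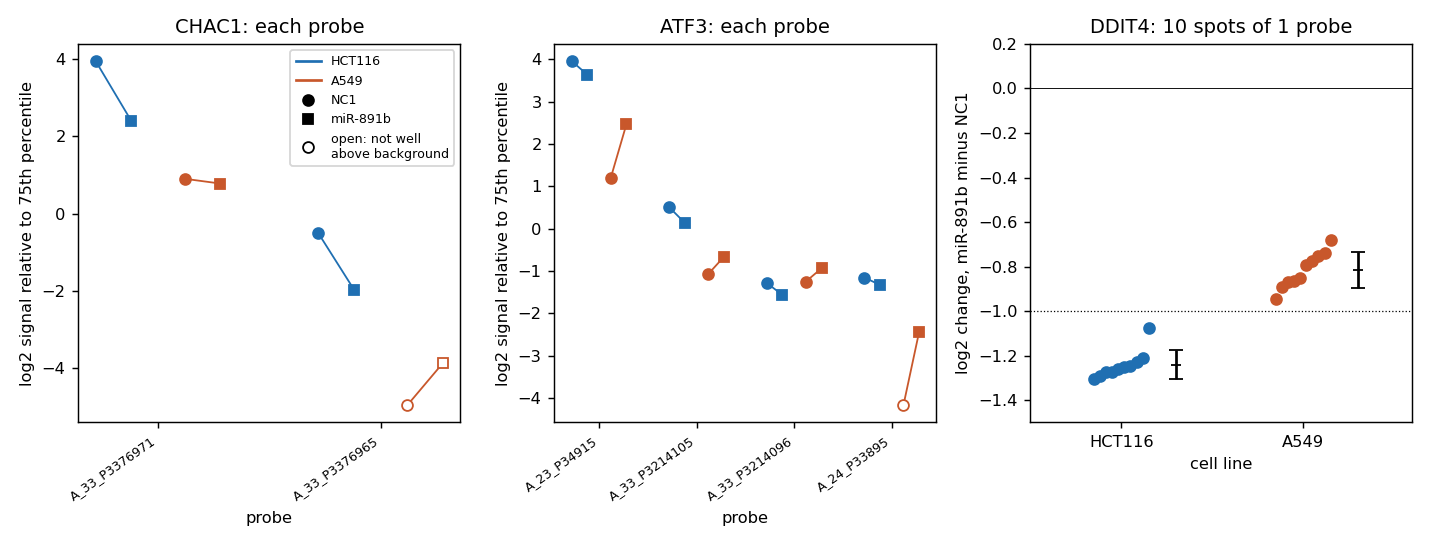
Log2 level of each CHAC1 and ATF3 probe on the 4 arrays (left and middle, open symbols not well above background; levels of different probes are not comparable) and the change at each of 10 DDIT4 spots, sorted by value, with the mean and SD (right). Both CHAC1 probes are lower with miR-891b in HCT116, and the DDIT4 spots lie from -1.31 to -1.07 in HCT116 and from -0.94 to -0.68 in A549.

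The transcription factors downstream of ATF4 had their largest changes in A549. ATF3, induced early in many stresses, was read by 4 probes, of which the brightest (A_23_P34915, chr1:212793856-212793915) gave 3.95 in HCT116 NC1, 3.64 in HCT116 miR-891b, 1.20 in A549 NC1 and 2.46 in A549 miR-891b. By this probe it rose by 1.26 in A549, or 2.40-fold (rank 473 from the highest of 21337), with a change of -0.32 in HCT116. The A549 levels of this probe remained below both of its HCT116 levels.

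The other ATF3 probes shared the signs of these changes and differed in size. A_33_P3214105 (chr1:212788502-212788561) changed by -0.37 in HCT116 and 0.41 in A549, and A_33_P3214096 (chr1:212792519-212792578) by -0.28 and 0.31. By A_33_P3214096 the A549 levels, -1.25 with NC1 and -0.94 with miR-891b, were above the HCT116 levels of -1.29 and -1.56. A_24_P33895 (chr1:212792837-212792896) changed by -0.18 in HCT116. In A549 it was at least 2.85-fold higher with miR-891b, since it was not well above background with NC1, a bound taken from the lowest measured signal of the NC1 array. The mean over the measured probes in A549 was 0.66, under 2-fold, so the ATF3 call depends on which probe stands for the gene. The probe A_33_P3214105 lay in an area of stray signal on HCT116 NC1 (10.05% of nearby dim spots), and the part of stray signal in its value was not tested.

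DDIT3 encodes CHOP, the factor tied to cell death under prolonged stress. Its 60-base probe (A_23_P21134) spans chr12:57911200-57911526, a stretch of 327 bases that includes a splice junction. The level was 0.80 in HCT116 NC1, 0.19 in HCT116 miR-891b, -0.54 in A549 NC1 and 1.02 in A549 miR-891b. A549 went from the lower to the higher line between NC1 and miR-891b. DDIT3 rose by 1.56 in A549, or 2.95-fold, at rank 241 from the highest, and its HCT116 change was -0.61, or 1.52-fold lower. With normexp the changes were 0.98 and -0.32, which ends the A549 call. Near the spot on HCT116 miR-891b, 11.96% of otherwise dim spots were well above background, against 1.82% and 3.57% on the A549 arrays. The part of stray signal in the HCT116 value was not tested.

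ATF5, a relative of ATF4 whose translation is controlled in a like way, was the one gene with a positive change in both lines (A_23_P119337, chr19:50436754-50436813). Its level was 0.77 in HCT116 NC1, 1.17 in HCT116 miR-891b, 0.50 in A549 NC1 and 1.12 in A549 miR-891b. The changes of 0.39 and 0.62 were within 2-fold. Its spot on HCT116 miR-891b lay in an area of stray signal (13.8%), and the part of that signal in the HCT116 value was not tested.

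TRIB3 is a pseudokinase that ATF4 and CHOP induce and that restrains them in turn (A_23_P210690, chr20:378107-378166). Its level was 6.55 in HCT116 NC1, 6.30 in HCT116 miR-891b, 7.57 in A549 NC1 and 7.68 in A549 miR-891b. Changes of -0.25 and 0.11 were small beside the separation of the lines. Under quantile normalization the A549 change was 0.55.

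NUPR1, a small chromatin-associated protein made in many stresses, had the largest change of the 10 in each line as scaled here, and in opposite directions. Its 1 probe (A_24_P270728, chr16:28548821-28548880, 1 spot) had processed signals of 102 in HCT116 NC1, 29.2 in HCT116 miR-891b, 426 in A549 NC1 and 1854 in A549 miR-891b. On the scaled log2 axis these were 0.90, -0.96, 2.51 and 4.64. Both A549 arrays were above both HCT116 arrays, and miR-891b gave the lowest level in HCT116 and the highest in A549.

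In HCT116 NUPR1 fell by 1.86, to 27.5% of the NC1 signal, which was rank 8 from the lowest of 19105 genes. In A549 it rose by 2.13, or 4.38-fold, at rank 89 from the highest of 21337. Between the lines the change differed by 3.99, so that the A549 level exceeded the HCT116 level by 1.62 with NC1 and by 5.61 with miR-891b. NUPR1 was 1 of 9 genes (0.0498% of 18063) past 2-fold downward in HCT116 and upward in A549. Its spot lay outside areas of stray signal, with 0.503% to 5.71% of nearby dim spots bright. After normexp with quantile normalization the HCT116 change was -0.92, short of 2-fold and smaller than those of CHAC1 (-1.29), DDIT4 (-1.13) and ASNS (-0.96), and the A549 change was 2.24.

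**Figure D3:**
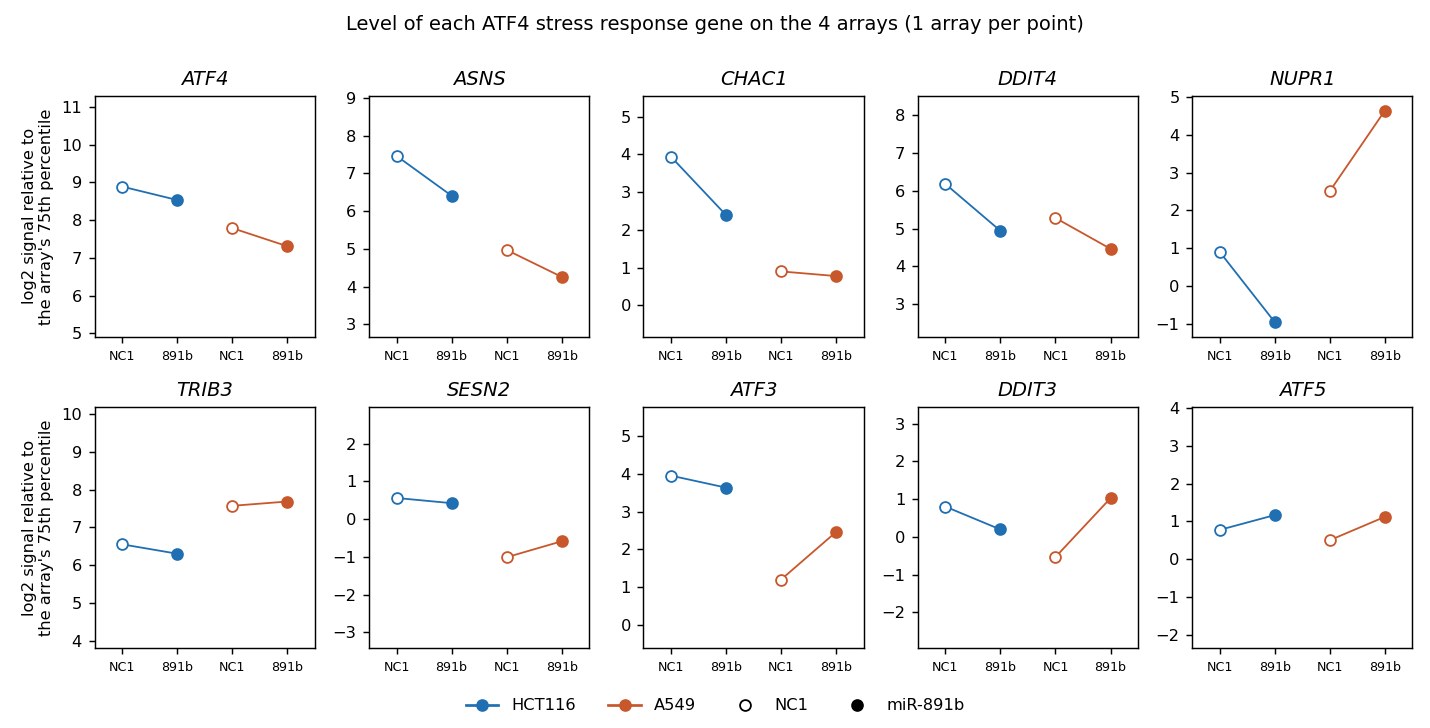
Log2 level of each of the 10 genes relative to the 75th percentile of the array, for HCT116 (blue) and A549 (orange) with NC1 (open) and miR-891b (filled), 1 array per point. All panels span the same number of log2 units, centred on the gene. NUPR1 goes from 0.90 to -0.96 in HCT116 and from 2.51 to 4.64 in A549.

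The genes with the pattern most like NUPR1 were sought by the Euclidean distance over the changes in both lines, among 13636 genes with a symbol that were well above background on all 4 arrays. The nearest was CEMIP, at a distance of 0.71, with changes of -1.48 in HCT116 and 1.53 in A549. VWA5B2 followed at 0.89 (-1.41 and 1.36), PAPLN at 1.01 (-0.85 and 2.05), FAM177B at 1.02 (-1.13 and 1.42) and RNF157-AS1 at 1.03 (-1.30 and 1.27). The distance rests on 2 values per gene, and none of the 5 was among the 10 genes or the lists given below.

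Levels also separated the lines, in ways that cannot be told apart from the slides or the growth media. With NC1, 6 of the 10 genes had a level at least 2-fold lower in A549, and 2 had a higher one by that size. Of all genes measured on both arrays, 16.2% were lower and 11.1% higher by that rule. With miR-891b the counts were 5 and 2, where all genes gave 20.7% and 11.4%. CHAC1 was furthest below on NC1, at -3.04 for A549 minus HCT116, followed by ATF3 at -2.75 and ASNS at -2.49. Next came SESN2 at -1.57, DDIT3 at -1.34 and ATF4 at -1.10. DDIT4 at -0.90 and ATF5 at -0.27 were within 2-fold, and TRIB3 and NUPR1 were higher in A549 by 1.02 and 1.62. With miR-891b the ATF3 difference narrowed to -1.17 and that of CHAC1 to -1.62, and DDIT3 was higher in A549 by 0.83. These ATF3 values are by its brightest probe. A_33_P3214105 gave -1.57 with NC1 and -0.80 with miR-891b, and A_33_P3214096 gave 0.037 and 0.63.

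Other genes that ATF4 is known to induce had a lower median with miR-891b in both lines. Of 43 such genes, 40 were measured in HCT116, of which 1 fell at least 2-fold, 0 rose and 34 lay below 0, with a median of -0.27. In A549 41 were measured, of which 5 fell, 3 rose and 31 lay below 0, with a median of -0.28. The corresponding medians over all genes were -0.041 and -0.059. Of all measured genes, 0.843% fell and 1.16% rose at least 2-fold in HCT116, and 5.57% fell and 4.01% rose in A549. The size of the list medians depends on the scaling, with -0.18 in HCT116 and -0.15 in A549 after normexp, and -0.19 in both lines under quantile normalization. The list was written with results of these data known, PSAT1 among them, and its direction is no independent evidence.

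Within that list, PCK2, the mitochondrial phosphoenolpyruvate carboxykinase, fell by 1.44 in HCT116 with a change of -0.94 in A549. In A549 PSAT1 fell by 1.58. PHGDH, the first enzyme of serine synthesis, fell 2.82-fold there and SLC7A1, a transporter of cationic amino acids, fell 2.21-fold. JDP2, a leucine zipper repressor, and YARS, the tyrosyl-tRNA synthetase, each changed by -1.07 in A549. The HCT116 changes of these 5 were -0.81, -0.92, -0.57, -0.99 and -0.28. The HCT116 miR-891b spots of PHGDH, SLC7A1 and JDP2 lay in areas of stray signal, and its part in those values was not tested.

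The 3 genes of that list that rose in A549 were GDF15, a secreted stress cytokine, by 1.33, KLHL24, an adaptor of a ubiquitin ligase, by 1.14, and SLC6A9, a glycine transporter, 2.14-fold. Their HCT116 changes were -0.38, 0.0046 and -0.81, that of GDF15 from a spot in an area of stray signal on HCT116 miR-891b. Thus A549 held ATF4 targets that moved in both directions. Normexp with quantile normalization gave 0 lower genes in HCT116 and 1 in A549 (PSAT1, -1.42). It gave 3 higher ones in A549, not all of them the same, since KLHL24 was at 0.77. The share of all genes past 2-fold with normexp is not given here.

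Genes that act upstream of ATF4 were listed as well. All 18 kinases and regulators of eIF2 were measured in each line, and 0 fell and 0 rose by the probe that stood for the gene. Of all measured genes, 0.843% fell and 1.16% rose by that size in HCT116, and 5.57% fell and 4.01% rose in A549. The median of the 18 was -0.019 in HCT116, a sign that turned under the 3 scalings other than the authors' own, and -0.16 in A549. The A549 median shrank to -0.096 under median scaling, -0.063 with normexp and -0.036 under quantile normalization. The lowest in HCT116 were EIF2AK1, the haem-regulated kinase, at -0.44 and EIF2S3, an eIF2 subunit, at -0.39, and the highest were EIF2S1 at 0.42 and EIF2B3 at 0.27. In A549, EIF2S2 (-0.64) and EIF2B2 (-0.58) were lowest, and the other EIF2S2 probe was just past 2-fold, at -1.01, so that gene's side of the threshold depends on the probe. The A549 highest were EIF2AK3, which encodes the endoplasmic reticulum kinase PERK, at 0.75 and PPP1R15A, which directs eIF2 dephosphorylation, at 0.51.

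Endoplasmic reticulum genes driven by ATF6 and XBP1, the other arms of the unfolded protein response, were listed for comparison. All 16 were measured. In HCT116 0 passed 2-fold, where 0.843% of all measured genes fell and 1.16% rose by that size. Of the 16, 14 lay below 0 there, with a median of -0.14. That median was -0.051 with normexp (11 of 16 below 0) and -0.099 under quantile normalization (10 below 0). In A549 14 lay above 0, with a median of 0.52, and 1 rose at least 2-fold: HSPA5, the chaperone BiP, by 1.23, with a change of 0.084 in HCT116. Of all genes measured in A549, 4.01% rose by that size, and the median change was -0.059. CRELD2 and PDIA4 changed by 0.93 each in A549 and by -0.24 and -0.29 in HCT116. At the other end, DNAJB11 (-0.23) and EDEM1 (-0.069) were lowest in A549, and EDEM1 (-0.85) and HYOU1 (-0.31) were lowest in HCT116, where HSPA5 and SEL1L (0.072) were highest. The A549 median ran from 0.41 to 0.74 under the other scalings, and the count past 2-fold was 5 with normexp and 6 under quantile normalization. The shares of all genes past 2-fold under those scalings are not given here.

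The last list held 23 genes of the TORC1 pathway on which SESN2 and DDIT4 act. Of 23 measured in HCT116, 0 passed 2-fold, where 0.843% of all measured genes fell and 1.16% rose by that size. The HCT116 median of the list was -0.030, turning sign under the 3 scalings other than the authors' own. In A549 1 of 22 rose: RRAGD, a Rag GTPase, by 1.72, with a change of -0.20 in HCT116, although normexp gave 0.98 in A549. A count of 1 in 22 is near the 4.01% of all genes that rose by that size in A549. The median of the list in A549 was 0.18, or 0.31 under quantile normalization. SESN3, a relative of SESN2, was at least 4.27-fold higher with miR-891b in A549, where it was not well above background with NC1, and changed by 0.40 in HCT116. RRAGA (-0.56) and MLST8 (-0.28), subunits on the Rag and the kinase side, were lowest in HCT116, and SESN3 and RPTOR (0.31) were highest.

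**Figure D4:**
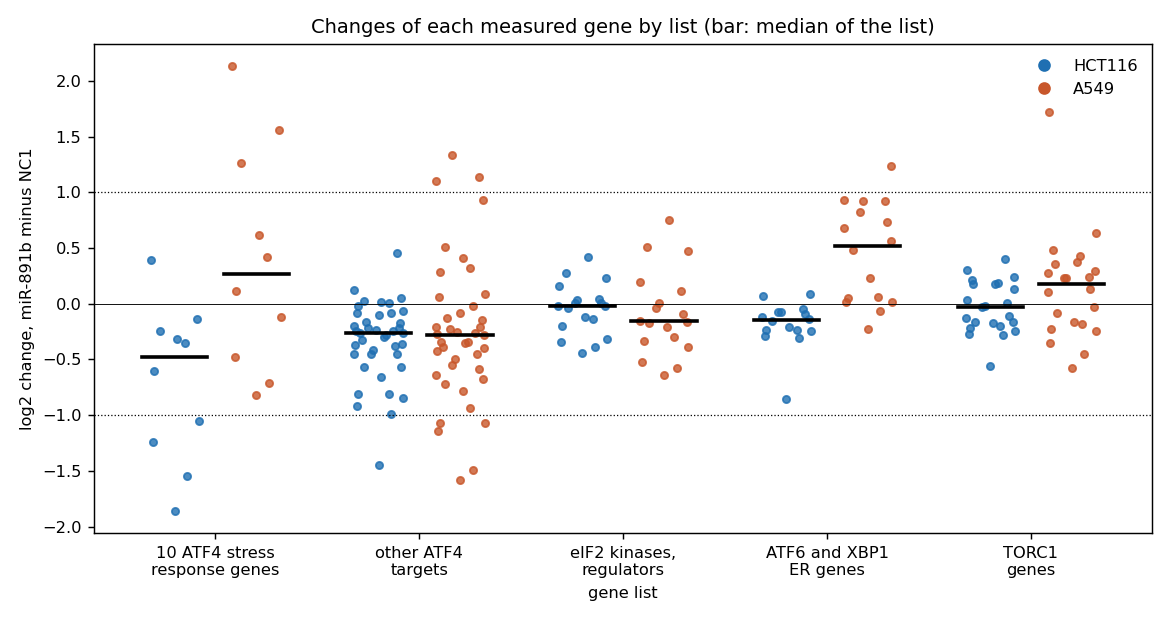
Log2 change of every measured gene, miR-891b minus NC1, in the 10 ATF4 stress response genes and the 4 further lists, for HCT116 (blue) and A549 (orange), with the list median as a bar and dotted lines at 2-fold. The median of the 10 genes is -0.48 in HCT116 and 0.27 in A549, and that of the endoplasmic reticulum list is -0.14 and 0.52.

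The promoter element was then set beside the changes. The 3 genes with a match had changes of -1.05 (ASNS), -1.54 (CHAC1) and -0.32 (ATF3) in HCT116 and of -0.71, -0.12 and 1.26 in A549. Thus ATF3, with a match in 1 of its 2 windows, rose in A549 while ASNS, also matched in 1 of 2, and CHAC1 did not. From which start of ATF3 or ASNS the measured RNA came was not analysed here. DDIT4, without a match in its window, fell in HCT116 as ASNS and CHAC1 did. The element was found in 14 of 34 other ATF4 targets with a window (41.2%), in 1 of 16 eIF2 genes, in 0 of 16 endoplasmic reticulum genes and in 1 of 18 TORC1 genes. Among the measured ATF4 targets, the 13 with a match had a median of -0.24 in HCT116 and the 19 without one had -0.32. In A549 the medians were -0.28 for 13 genes and -0.21 for 20.

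No change turned sign under the other ways of processing the arrays, but several of these could hardly turn one. All 20 changes (10 genes in 2 lines) kept their sign under each of the 8 alternatives in which they were measured, the 7 past 2-fold included. Dropping the filter on dim probes left the values unchanged, and the authors' values differ little from those used here. Leaving out stray signal only drops probes or spots. Normexp and quantile normalization moved the most values. Some signs were kept there at sizes below the SD over spots. These were SESN2 in HCT116 (-0.019 with normexp), ATF4 in A549 (-0.029 and -0.048) and CHAC1 in A549 (-0.040 with normexp). Of the 7 changes past 2-fold, CHAC1 and DDIT4 in HCT116 and NUPR1 in A549 stayed past it in each alternative in which they were measured. The other 4 fell short of it in at least 1, with the values given above.

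**Figure D5:**
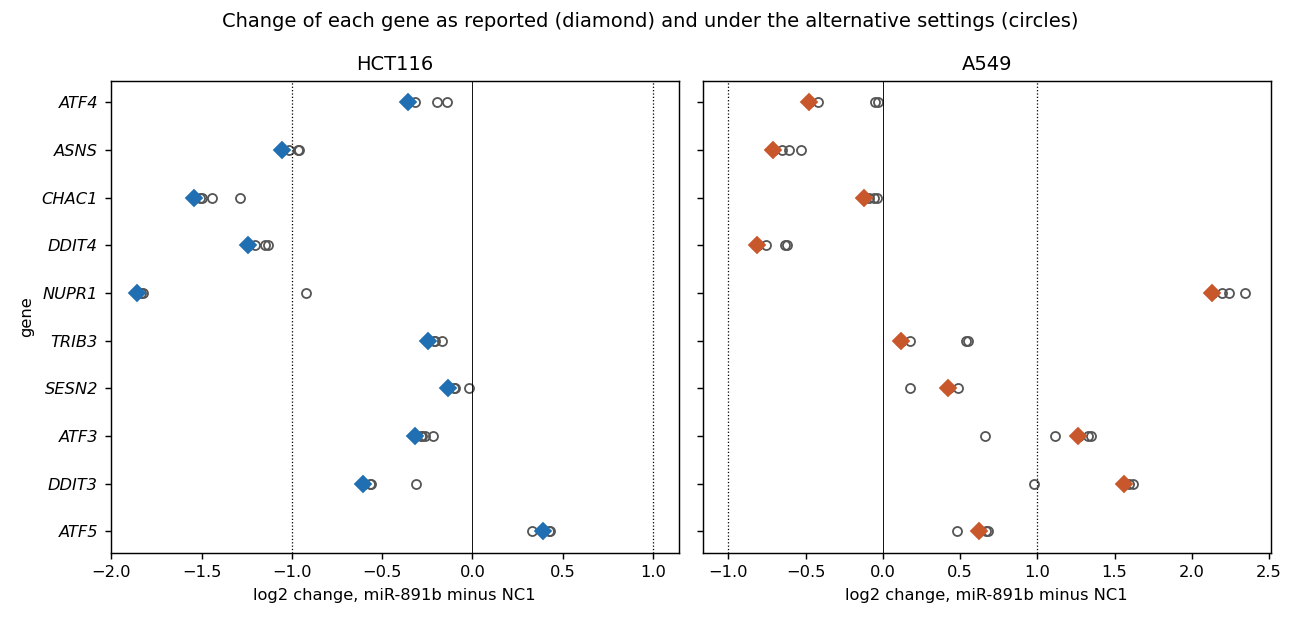
Log2 change of each gene in HCT116 (left) and A549 (right) as reported (diamonds) and under the alternative settings (open circles), with dotted lines at 2-fold. NUPR1 in HCT116 moves most toward 0, from -1.86 to -0.92, and no gene changes side.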

How the data were processed

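Cy3-labelled RNA of both lines, each with miR-891b or NC1, was hybridised to 1-colour Agilent arrays, 1 per group as the titles give it. Per the file headers and the submitters' processing notes, scans were read with Agilent Feature Extraction 11.5.1.1 and probes are placed on hg19. The authors deposited linear intensity values from the scanner, already background-subtracted and not scaled between arrays. The authors' deposited value table holds log2 values, which differed from those computed here by a median of at most 0.0069 per array.

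Outlier spots were left out, log2 processed signals were averaged per probe, and each array's 75th percentile was subtracted, in Python 3.11.15 with pandas 2.3.3 and numpy 2.4.6. The probe with the highest mean stood for a gene. A gene counted as measured in a line if Feature Extraction marked that probe as well above background on the line's 2 arrays, and as called from 2-fold. The percentile and quantile scaling and the marking of stray signal were tested on simulated data. The planted changes were well past 2-fold and in bright genes, so dim genes, changes near 2-fold and normexp were not covered. Normexp (offset 50) used limma 3.58.1 in R 4.3.3. Other alternatives were quantile normalization, median scaling, the authors' values, the mean over probes, no filter on dim probes, thresholds of 1.5-fold and 3-fold, and stray signal left out.

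The genes and lists were chosen with earlier results of these data known. Named from the lists were genes past 2-fold in either line, and otherwise the 2 lowest and 2 highest in each line. As most like NUPR1, the 5 nearest genes were named. Gene names follow the array and can be old. Promoter and microRNA sequences are from RefSeq (GRCh38.p14). Where probes lie within exons of hg19 was not analysed here. Some items that these rules or counts include are not reported here.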

Additional observations from a re-analysis of the deposited data

Results flagged for a closer look

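For 5 of the 10 genes the change in HCT116 was negative and that in A549 positive. The A549 change minus the HCT116 change was 3.99 for NUPR1, 2.16 for DDIT3, 1.58 for ATF3, 0.56 for SESN2 and 0.36 for TRIB3. With 1 array per group none of these differences was tested, and line, medium and slide cannot be told apart. NUPR1 was past 2-fold on both sides, DDIT3 and ATF3 in A549 alone, and SESN2 and TRIB3 in neither line.

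Negative control spots carry no gene and should be dim. Each array has 308 of them. HCT116 miR-891b had 11 well above background and A549 miR-891b had 2, against 0 on each NC1 array. Of the probes that stood for the 10 genes, those of DDIT3 and ATF5 and 1 of the 10 DDIT4 spots were inside areas with stray signal on HCT116 miR-891b.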

How the results depend on the processing

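The genes past 2-fold lower in HCT116 numbered 4, or 2 after normexp with quantile normalization (CHAC1 and DDIT4) and 1 at 3-fold (NUPR1). Those lower in A549 numbered 0, or 2 at 1.5-fold (ASNS and DDIT4), and those higher in A549 numbered 3, or 1 at 3-fold (NUPR1). The shares of all genes at 1.5-fold, at 3-fold or after normexp are not given here, so these counts have nothing to be read against. The HCT116 median of -0.48 became -0.27 with normexp, -0.41 under quantile normalization, -0.36 without probes in areas of stray signal on any array (7 genes left, DDIT4, DDIT3 and ATF5 lost), and -0.71 without the spots in such areas on the arrays of the line, a setting chosen after seeing the data (8 genes left). The A549 median of 0.27 became 0.48 under quantile normalization and 0.11 without probes in areas of stray signal. Fewer genes enter both stray-signal settings. For the others the cause was not tested. The 9 genes past 2-fold in opposite directions became 1, MRC2, with normexp, also chosen after the data were seen. Of 152 single changes under the alternatives, 121 moved by less than the SD over spots and 31 by more, with 0 reversed. The larger moves came from normexp and quantile normalization, apart from ATF3 in A549 under the mean over probes (0.66). The other alternatives mostly repeat the reported values, so the 121 are no measure of how firm the changes are.

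The normexp setting adds an offset of 50 to every spot, and the NUPR1 signals in HCT116 were 102 and 29.2, where its change moved from -1.86 to -0.92. That setting also differs in background correction and scaling, and the part of the offset in the move was not tested. No paired analysis was possible because the labels give no replicate numbers and each group is 1 array, and no array was left out, since 1 array is a whole group.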

Other observations

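Among the other genes past 2-fold downward in HCT116 and upward in A549, some were picked out after their values were seen. C10orf10, a gene induced by FOXO factors and glucocorticoids, had the largest A549 change, with -1.38 in HCT116 and 3.12 in A549. METTL7A changed by -1.58 and 1.096, and MRC2, a collagen receptor, by -1.21 and 1.08. A further 4 (CEMIP, VWA5B2, FAM177B and RNF157-AS1) are among the genes nearest to NUPR1. The spot of C10orf10 lay in an area of stray signal on at least 1 of the arrays, and its part in that value was not tested.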
